A study of Homo sapiens with 16 samples.

Results

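The comparison described here is that of AU-15330 against DMSO in NCI-H526, a human small cell lung cancer (SCLC) line of the POU2F3 subtype (SCLC-P), followed over every gene whose mean deposited value over the 4 libraries of the line was at least 1. This rule kept 13685 of 35606 genes. Of the remainder, 12030 were at 0 in every NCI-H526 library and 9891 lay above 0 with a mean under 1. The identifier just inside the limit was ENSG00000285458 (mean 1.00), and the histone gene H4C4 lay just outside it (mean 0.99997). RNA was sequenced in 16 libraries of 4 cell lines of POU2F-driven malignancies, and the question was which genes depend on the mSWI/SNF chromatin remodeling complex. One arm was NCI-H526 given AU-15330, a PROTAC degrader of the proteins SMARCA2, SMARCA4 and PBRM1, dissolved in DMSO and used at 1 µM (2 libraries), and the other arm was NCI-H526 given DMSO (2 libraries). Sample titles give 24 h for both arms, the treatment protocol 12 to 24 h and the design text 4 to 12 h, so the duration is not certain. Nothing in the labels says that the replicates were separate cultures of this single line, and the p-values thus cover only the spread among libraries, which may be technical.

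The mSWI/SNF (BAF) complexes use ATP to move or evict nucleosomes, which keeps enhancers and promoters open to transcription factors. SMARCA4 and SMARCA2 are their alternative ATPases, PBRM1 is a bromodomain subunit of the PBAF form, and a PROTAC joins such a protein to a ubiquitin ligase so that the proteasome destroys it. POU2F3 binds the octamer sequence together with the coactivators POU2AF2 or POU2AF3 and is the master factor of tuft cells, rare chemosensory cells of epithelia that detect ligands through taste receptors and release acetylcholine and lipid mediators. SCLC-P tumors carry this tuft-like program, whereas other subtypes, such as that marked by NEUROD1, are neuroendocrine.

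Values are the scaled values of the deposited table, close to CPM, at an estimated 31.5 and 36.2 M reads in the AU-15330 libraries and 38.1 and 43.0 M reads in the DMSO libraries. Changes are given as AU-15330 over DMSO on the log2(value + 0.5) scale (log2 fold change ± standard error), which understates the change of low genes. Calls rest on limma with Benjamini-Hochberg adjustment at 0.05 over all 13685 genes. Where the arms are said not to overlap for a named gene, this only describes its values. It is no support beyond the call, since most named genes were chosen because they passed. The share of all genes without overlap was not counted. Over 11224 genes with a mean of at least 5, log2 values differed with an SD of 0.14 between the AU-15330 libraries and 0.093 between the DMSO libraries, against 0.50 to 0.52 between libraries of different arms. The squared differences were 3.46 times the counting variance between the AU-15330 libraries, 1.69 times between the DMSO libraries and 30.7 to 43.5 times between the arms, so the AU-15330 pair was the less uniform of the replicates. In bulk RNA, fewer cells of a kind and less RNA per cell cannot be told apart, and this holds for every level given here.

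Marker levels were checked against the label. All 11 tuft-like SCLC markers had a mean of at least 1, and their summed scaled value was 2169 to 2243 in the AU-15330 libraries, against 4413 to 4466 in the DMSO libraries. The set includes the proto-oncogene MYCN, which weighs heavily on these sums. It alone measured 1231 and 1283 in the AU-15330 libraries, against 1622 and 1658 in the DMSO libraries. Of 7 neuroendocrine markers, 6 had a mean of at least 1. NEUROD1 measured 1.58 and 1.78 in the AU-15330 libraries, against 2.11 and 2.01 in the DMSO libraries, and its change did not pass (log2 fold change -0.24, adjusted p = 0.22). Of 9 myeloma and plasma cell markers, 7 stayed under 1 in every library, JCHAIN and TNFRSF17 were at or near 0, and the syndecan SDC1, which many epithelia also express, was the single one with a mean of at least 1. SDC1 measured 17.8 and 18.3 in the AU-15330 libraries, against 36.4 and 37.3 in the DMSO libraries (log2 fold change -1.01 ± 0.06, adjusted p = 3.3e-07).

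Of the 13685 genes, 8041 passed the test (58.8%), 3964 of them higher (29.0%) and 4077 lower (29.8%) with AU-15330. Most of these changes were small, since 88.2% of the genes that passed (7092) changed less than 2-fold and their median absolute log2 fold change was 0.39. Larger changes ran mainly downward, with 724 genes at least 2-fold lower (5.29%) and 225 at least 2-fold higher (1.64%). At least 4-fold changes were seen in 111 genes that fell and 26 that rose. These percentages are the background for every count of list members. The median log2 fold change over all genes was -0.001, and it was 0.04 with total-count rescaling and 0.05 with quantile normalization.

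**Figure D1:**
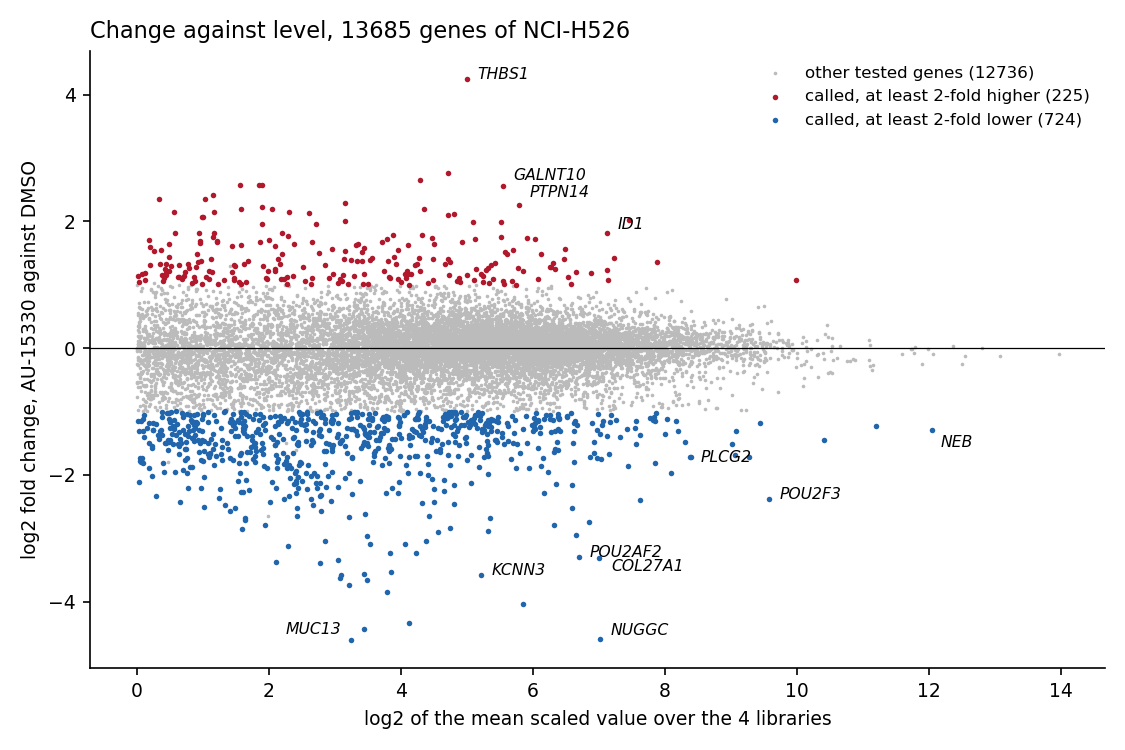
Log2 fold change of AU-15330 against DMSO (vertical axis) against log2 of the mean scaled value over the 4 libraries (horizontal axis) for 13685 genes of NCI-H526. The 724 genes at least 2-fold lower (blue) outnumber the 225 at least 2-fold higher (red), and 12736 other genes are grey.

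POU2F3 and its tuft cell coactivators were downregulated. POU2F3 (chr11:120236640-120319945; GRCh38) measured 247 and 242 in the AU-15330 libraries, against 1280.2 and 1287 in the DMSO libraries (log2 fold change -2.39 ± 0.04, adjusted p = 1.6e-10). Its coactivator gene POU2AF2 (chr11:111245725-111286401), which lies on the same chromosome arm beside POU2AF3 and POU2AF1, measured 19.3 and 18.6 in the AU-15330 libraries, against 191 and 189 in the DMSO libraries (log2 fold change -3.29 ± 0.05, adjusted p = 6.0e-11). Both genes were reduced in each AU-15330 library with no overlap between the arms, 5.23-fold lower for POU2F3 and 9.80-fold lower for POU2AF2. POU2AF3 (chr11:111298546-111308735), the other tuft cell coactivator, measured 5.11 and 5.56 in the AU-15330 libraries, against 9.60 and 10.7 in the DMSO libraries (log2 fold change -0.87 ± 0.10, adjusted p = 5.9e-05). POU2AF1 (chr11:111352255-111455630), the coactivator of B cells, measured 2.73 and 2.60 in the AU-15330 libraries, against 4.94 and 3.83 in the DMSO libraries (log2 fold change -0.62 ± 0.15, adjusted p = 0.0049), and this call ended without DMSO replicate 1 (log2 fold change -0.45, adjusted p = 0.059). The broadly expressed octamer factor POU2F1 did not follow, at 182 and 169.9 in the AU-15330 libraries, against 189 and 186 in the DMSO libraries (log2 fold change -0.09 ± 0.04, adjusted p = 0.095). Its call depended on the fit, since it passed without AU-15330 replicate 1 (adjusted p = 2.1e-04). POU2F2, the octamer factor of B cells, measured 1.60 and 1.53 in the AU-15330 libraries, against 1.54 and 1.84 in the DMSO libraries, with overlapping arms (log2 fold change -0.08 ± 0.17, adjusted p = 0.69).

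Transcripts of the degrader's own protein targets hardly moved. SMARCA2, an ATPase of the complex, measured 102 and 100.3 in the AU-15330 libraries, against 89.2 and 92.3 in the DMSO libraries (log2 fold change 0.16 ± 0.04, adjusted p = 0.0086), and lost its call without DMSO replicate 1 or without a variance trend. SMARCA4, the alternative ATPase, measured 314 and 317 in the AU-15330 libraries, against 364 and 369.5 in the DMSO libraries (log2 fold change -0.22 ± 0.04, adjusted p = 8.0e-04), and lost its call in one fit of all 16 libraries. PBRM1 measured 238 and 233 in the AU-15330 libraries, against 269.8 and 274 in the DMSO libraries (log2 fold change -0.21 ± 0.04, adjusted p = 0.001). The arms did not overlap for any of the 3 genes, but each change was well under 2-fold, and the protein levels on which a degrader acts were not measured in these libraries. Proto-oncogene MYCN measured 1231 and 1283 in the AU-15330 libraries, against 1622 and 1658 in the DMSO libraries (log2 fold change -0.38 ± 0.05, adjusted p = 1.4e-04).

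**Figure D2:**
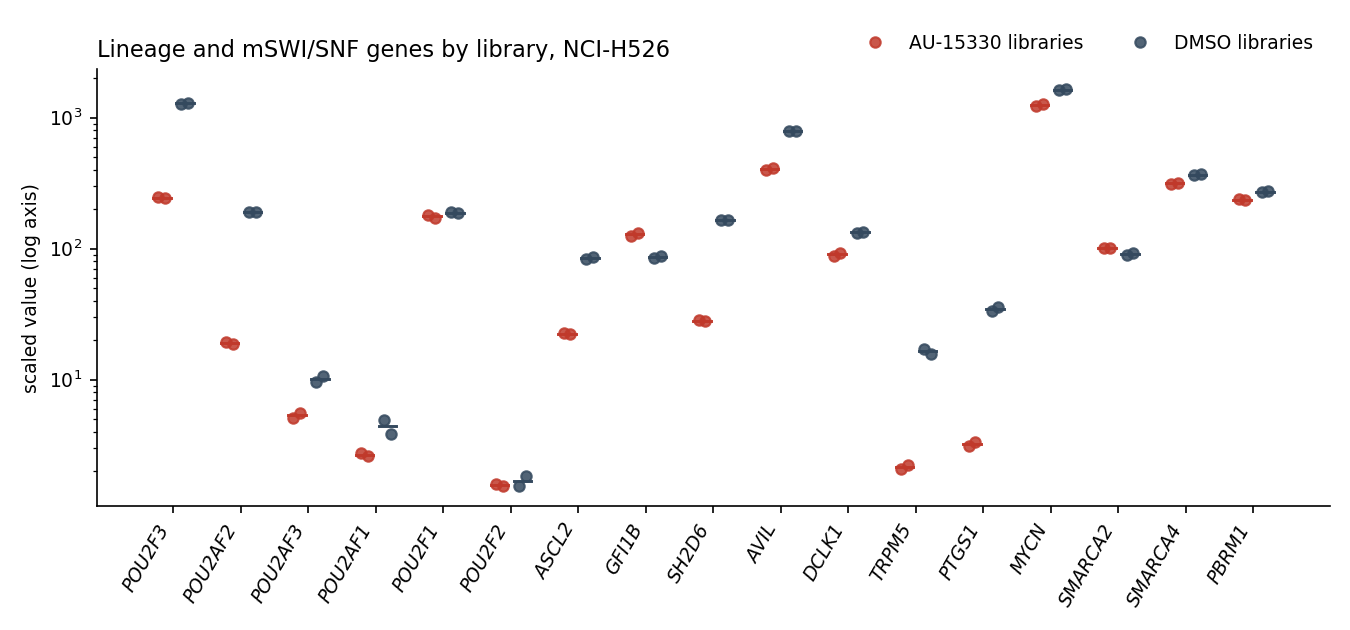
Scaled values (log axis) of 17 lineage and mSWI/SNF genes in each NCI-H526 library, AU-15330 libraries in red to the left and DMSO libraries in dark blue, with bars at the group means. POU2F3 lies at 247 and 242 in the AU-15330 libraries, against 1280.2 and 1287 in the DMSO libraries, whereas GFI1B is the lineage gene that lies higher with AU-15330.

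Other transcription factors of the tuft lineage were mostly lower as well. Of 12 tested members of that list, 1 rose, 9 fell and 2 did not pass, with a median log2 fold change of -0.88 and 2 members rising under 7 of the alternatives. SPIB, an ETS factor of microfold cells and lymphocytes, measured 8.05 and 8.82 in the AU-15330 libraries, against 43.2 and 41.00 in the DMSO libraries (log2 fold change -2.25 ± 0.07, adjusted p = 6.5e-09). ASCL2, a basic helix-loop-helix factor of intestinal stem cells, measured 22.6 and 22.3 in the AU-15330 libraries, against 83.4 and 86.3 in the DMSO libraries (log2 fold change -1.90 ± 0.05, adjusted p = 2.0e-09). RUNX1 (-1.21) and the epithelial ETS factor EHF (-1.21) fell by similar log2 fold changes. The homeobox genes HMX2 and HMX3, neighbours on chromosome 10 that act in inner ear development, both fell: HMX2 measured 45.7 and 49.6 in the AU-15330 libraries, against 96.2 and 102 in the DMSO libraries (log2 fold change -1.05 ± 0.05, adjusted p = 1.3e-07). HMX3, named for its place beside HMX2, measured 111 and 109.8 in the AU-15330 libraries, against 175 and 185 in the DMSO libraries (log2 fold change -0.70 ± 0.04, adjusted p = 4.1e-07). GFI1B, a zinc finger repressor of megakaryocytes and erythroid cells that tuft cells also use, was the member that rose, at 124 and 132 in the AU-15330 libraries, against 85.5 and 88.4 in the DMSO libraries (log2 fold change 0.56 ± 0.05, adjusted p = 3.4e-06). POU factors outside the POU2F class moved in both directions: POU3F1 fell (-1.45), whereas the neuronal factors POU3F2 (1.07) and POU4F1 (0.59) rose.

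The promoter windows of the changed genes were searched for the octamer to show what sequence they carry. Windows of 300 bases (250 before to 50 after the outer start of the gene in GENCODE) could be read for 13636 of the tested genes. ATGCAAAT on either strand was present in 24 of 723 windows of genes at least 2-fold lower (3.32%), in 3 of 224 windows of genes at least 2-fold higher (1.34%) and in 206 of all 13636 (1.51%). For comparison, the AP-1 site TGACTCA was found in 3.32% of the lower, 2.23% of the higher and 3.00% of all windows, the E-box CACGTG in 7.47%, 5.80% and 9.34%, and TATAAA in 9.54%, 13.8% and 7.39%, and none of the 4 motifs contains another. The motifs were chosen with the results known and a match is a description of letters, not of binding. The median CpG count per window was 20 for the lower genes, 20 for the higher genes and 23 for all. The motif shares were not adjusted for base composition. RefSeq windows of the same length, of which a gene can have several, held the octamer in 623 of 35116 (1.77%). They include windows of HES6, HMX2, AJUBA, KCNN3 and ATP6V1C2, shown here because the changes of these genes are described in the text. The choice was limited to genes at least 2-fold lower, so it fixed in advance that all 5 genes fell. Only the HMX2 window is also among those counted from GENCODE. The RefSeq start lay 530 bases from the GENCODE start for ATP6V1C2, 624 for HES6, 5709 for AJUBA and 10405 for KCNN3, whose counted windows did not hold the octamer. The octamers (capitals) are shown with up to 40 bases on each side, read 5′ to 3′ on the gene's strand from RefSeq on GRCh38.p14.
KCNN3 (chr1:154859880-154859990, minus strand, octamers beginning 74 and 51 bases before the start): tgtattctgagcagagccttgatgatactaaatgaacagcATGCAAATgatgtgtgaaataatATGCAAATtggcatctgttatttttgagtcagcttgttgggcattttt
ATP6V1C2 (chr2:10721518-10721605, plus strand, 72 bases before the start): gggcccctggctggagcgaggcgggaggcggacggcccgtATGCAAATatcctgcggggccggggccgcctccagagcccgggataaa
HES6 (chr2:238240036-238240123, minus strand, 45 bases before the start): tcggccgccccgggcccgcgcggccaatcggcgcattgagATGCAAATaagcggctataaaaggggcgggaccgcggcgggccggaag
HMX2 (chr10:123148031-123148118, plus strand, 65 bases before the start): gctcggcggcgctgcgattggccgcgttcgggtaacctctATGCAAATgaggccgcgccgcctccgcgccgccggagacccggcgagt
AJUBA (chr14:22977036-22977092, minus strand, 241 bases before the start): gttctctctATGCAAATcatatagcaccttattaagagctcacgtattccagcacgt

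KCNN3, with 2 octamers in 1 of its 3 RefSeq windows, encodes a calcium-activated potassium channel and measured 5.22 and 5.52 in the AU-15330 libraries, against 69.2 and 69.6 in the DMSO libraries (log2 fold change -3.58 ± 0.07, adjusted p = 3.2e-10). ATP6V1C2, a tissue-restricted subunit of the proton pump of acid organelles, measured 2.10 and 2.24 in the AU-15330 libraries, against 19.96 and 20.5 in the DMSO libraries (log2 fold change -2.96 ± 0.10, adjusted p = 7.9e-09). Neither gene overlapped between the arms. HES6, a neurogenic factor that counters HES1, measured 53.3 and 55.1 in the AU-15330 libraries, against 181 and 178 in the DMSO libraries (log2 fold change -1.72 ± 0.04, adjusted p = 1.3e-09). AJUBA, a LIM protein that binds LATS kinases at junctions, measured 2.02 and 2.21 in the AU-15330 libraries, against 8.33 and 9.53 in the DMSO libraries (log2 fold change -1.85 ± 0.12, adjusted p = 9.4e-07). All 5 genes, chosen among genes that fell, were lower in both AU-15330 libraries than in either DMSO library.

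The chemosensory cascade fell at nearly every step that was tested. Of 20 tested members of the taste and calcium signalling list, 0 rose, 16 fell and 4 did not pass, with a median log2 fold change of -1.21. TAS1R3, the shared subunit of the sweet and umami receptors, measured 1.41 and 1.13 in the AU-15330 libraries, against 20.5 and 20.6 in the DMSO libraries (log2 fold change -3.57 ± 0.12, adjusted p = 6.9e-09). Its umami partner TAS1R1, named for its role, measured 0.564 and 0.652 in the AU-15330 libraries, against 7.22 and 7.06 in the DMSO libraries (log2 fold change -2.79 ± 0.14, adjusted p = 1.4e-07). The receptors couple to a G protein whose taste cell gamma subunit, GNG13, measured 4.48 and 5.02 in the AU-15330 libraries, against 9.87 and 9.63 in the DMSO libraries (log2 fold change -0.97 ± 0.10, adjusted p = 2.8e-05). The beta subunit GNB3, named for its role, was an exception, at 11.1 and 10.4 in the AU-15330 libraries, against 9.17 and 10.04 in the DMSO libraries (log2 fold change 0.16 ± 0.09, adjusted p = 0.17), and passed as higher after quantile normalization alone. Downstream, the phospholipase PLCB2 measured 13.9 and 11.96 in the AU-15330 libraries, against 23.6 and 22.2 in the DMSO libraries (log2 fold change -0.80 ± 0.09, adjusted p = 2.4e-05). PLCG2, the phospholipase of immune receptors, measured 158 and 152 in the AU-15330 libraries, against 513 and 513 in the DMSO libraries (log2 fold change -1.72 ± 0.04, adjusted p = 9.4e-10). Of the calcium release channels that such phospholipases open, ITPR1 did not pass (log2 fold change -0.01, adjusted p = 0.955), while the other two fell: ITPR3 measured 2.04 and 2.07 in the AU-15330 libraries, against 11.4 and 11.2 in the DMSO libraries (log2 fold change -2.21 ± 0.11, adjusted p = 1.2e-07). ITPR2, which is likewise named for its role, measured 273 and 256 in the AU-15330 libraries, against 478 and 467 in the DMSO libraries (log2 fold change -0.84 ± 0.04, adjusted p = 1.7e-07). TRPM5, the cation channel that these calcium signals gate, measured 2.07 and 2.24 in the AU-15330 libraries, against 17.04 and 15.8 in the DMSO libraries (log2 fold change -2.67 ± 0.11, adjusted p = 2.5e-08). IRAG2, a partner of inositol trisphosphate receptors and a known tuft cell gene, and RGS13, which switches G proteins off, fell too, with log2 fold changes of -1.45 for IRAG2 and -2.80 for RGS13.

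Acetylcholine and lipid mediator genes are the outputs of tuft cells. CHAT, which makes acetylcholine, measured 1.25 and 0.992 in the AU-15330 libraries, against 10.4 and 9.05 in the DMSO libraries (log2 fold change -2.65 ± 0.14, adjusted p = 1.8e-07). SLC18A3, the vesicular acetylcholine transporter, lies inside the CHAT gene on the same strand, so reads of the pair may not be fully separable, and it measured 1.41 and 1.08 in the AU-15330 libraries, against 10.9 and 8.27 in the DMSO libraries (log2 fold change -2.53 ± 0.16, adjusted p = 6.7e-07). Both genes were thus low in the AU-15330 libraries without overlap. In contrast, the eicosanoid list was divided, with 4 members higher, 5 lower and 7 not passing of 16, a median of -0.08, and as many higher as lower under total-count or quantile rescaling. PTGS1, the constitutive cyclooxygenase of tuft cells, measured 3.13 and 3.32 in the AU-15330 libraries, against 33.6 and 35.6 in the DMSO libraries (log2 fold change -3.24 ± 0.09, adjusted p = 2.1e-09). PTGS2, the inducible cyclooxygenase, went the other way and measured 10.3 and 11.3 in the AU-15330 libraries, against 2.30 and 2.52 in the DMSO libraries (log2 fold change 1.96 ± 0.12, adjusted p = 3.5e-07). PLA2G4A, which frees arachidonic acid from membranes, measured 149.5 and 165 in the AU-15330 libraries, against 516 and 519 in the DMSO libraries (log2 fold change -1.72 ± 0.05, adjusted p = 3.0e-09). The leukotriene enzyme ALOX5 (-1.15) and the prostaglandin-degrading enzyme HPGD (-1.82) fell, while LTA4H, the leukotriene A4 hydrolase named for its role, rose slightly (0.29, adjusted p = 3.7e-04).

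Cytoskeletal and signalling genes that tuft cells share with brush borders and blood cells were lower as groups. Of 24 cytoskeletal and brush border genes, 3 rose, 17 fell and 4 did not pass (median -0.46). VIL1, the actin-bundling villin, measured 112 and 111 in the AU-15330 libraries, against 436 and 441 in the DMSO libraries (log2 fold change -1.97 ± 0.04, adjusted p = 3.4e-10). EPS8L3, an adaptor of actin dynamics, measured 0.972 and 0.765 in the AU-15330 libraries, against 17.3 and 18.2 in the DMSO libraries (log2 fold change -3.74 ± 0.13, adjusted p = 7.8e-09). The actin bundlers ESPN (-1.59) and FSCN1 (-1.28) also fell, as did USH1C (-1.31) and ANKS4B (-2.65), partners in the complex that links the tips of microvilli. AVIL (advillin) measured 397 and 413 in the AU-15330 libraries, against 794 and 796 in the DMSO libraries (log2 fold change -0.97 ± 0.04, adjusted p = 4.4e-08). Of 22 haematopoietic-type signalling genes, 1 rose, 17 fell and 4 did not pass (median -0.84). SH2D7 and SH2D6, small SH2 adaptors, were the most reduced: SH2D7 measured 1.41 and 1.33 in the AU-15330 libraries, against 26.5 and 26.3 in the DMSO libraries (log2 fold change -3.84 ± 0.10, adjusted p = 2.0e-09). SH2D6 measured 28.6 and 27.8 in the AU-15330 libraries, against 165 and 165 in the DMSO libraries (log2 fold change -2.53 ± 0.04, adjusted p = 1.6e-10). The SRC-family kinase LYN (-1.52), the CSK-family kinase MATK (-1.27) and the lipid phosphatase INPP5D (-1.21) fell too. Kinase gene DCLK1, a tuft cell marker, fell less (-0.55).

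**Figure D3:**
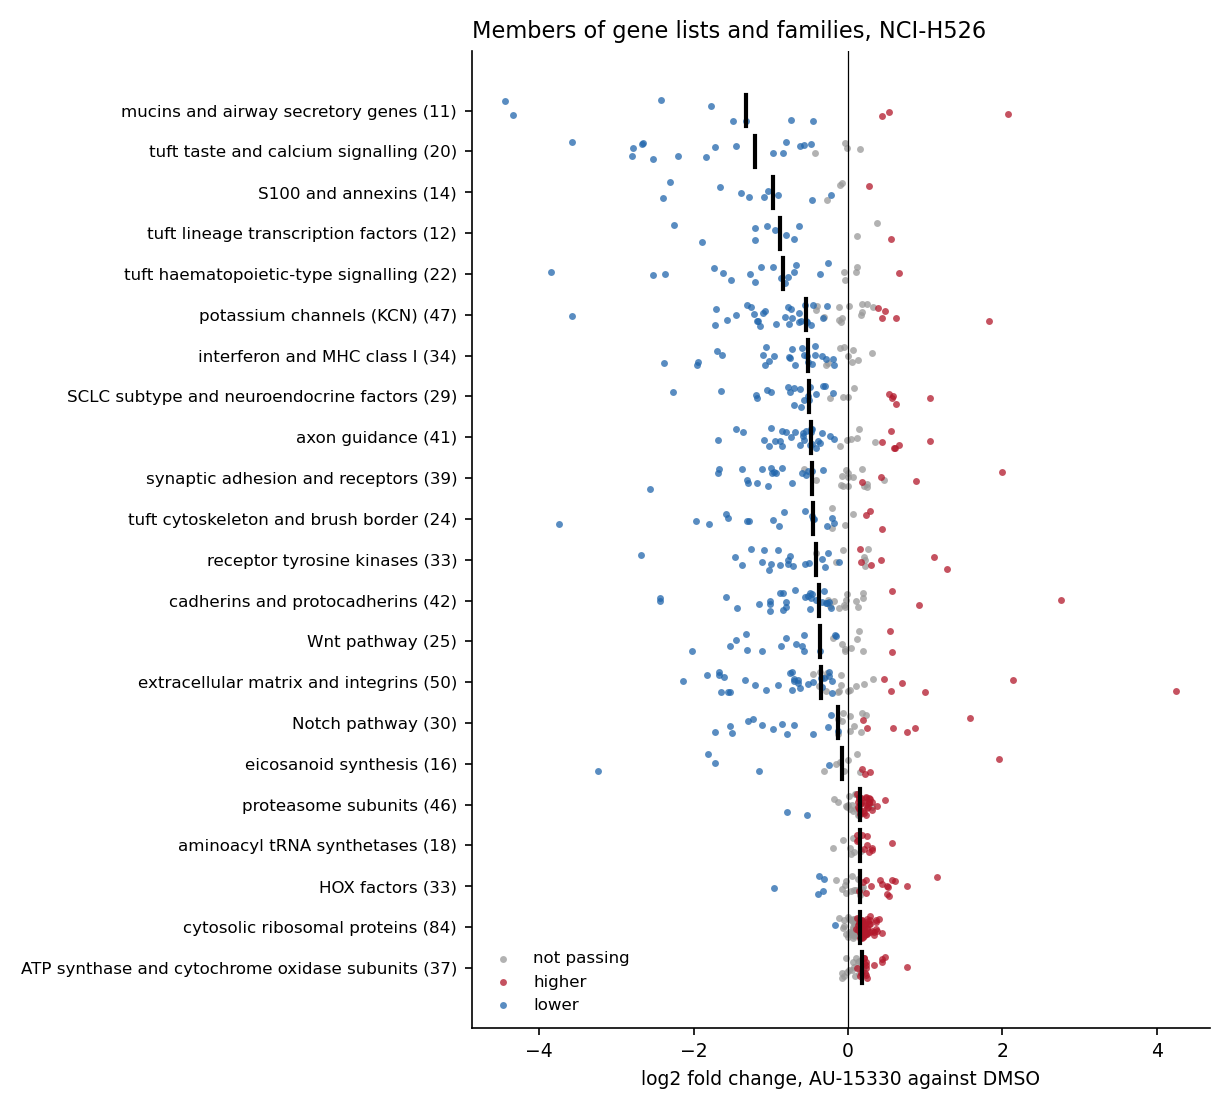
Log2 fold change with AU-15330 over DMSO (horizontal axis) of each tested member (points) of 22 gene lists and families in NCI-H526, with the number tested in brackets and a black bar at the median. Blue points passed as lower, red as higher and grey did not pass; the medians run from -1.33 for mucins and airway secretory genes to 0.18 for ATP synthase and cytochrome oxidase subunits.

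Genes ranked by size of change added members outside the tuft lists. Among genes that passed at a mean level of 10 or more, NUGGC, a nuclear GTPase of germinal centre B cells, measured 9.67 and 10.2 in the AU-15330 libraries, against 255 and 248 in the DMSO libraries (log2 fold change -4.60 ± 0.05, adjusted p = 9.8e-12). MUC13, a transmembrane mucin, measured 0.564 and 0.453 in the AU-15330 libraries, against 21.5 and 21.3 in the DMSO libraries (log2 fold change -4.44 ± 0.12, adjusted p = 2.9e-09). SLC26A9, a chloride transporter of airway and gastric epithelium, measured 1.60 and 0.850 in the AU-15330 libraries, against 33.9 and 33.5 in the DMSO libraries (log2 fold change -4.34 ± 0.17, adjusted p = 2.4e-08). SLC26A9 was thus low in the AU-15330 libraries, with 1 replicate under 1. TAMALIN, a scaffold of glutamate receptors, measured 5.96 and 6.52 in the AU-15330 libraries, against 109.8 and 110.4 in the DMSO libraries (log2 fold change -4.04 ± 0.06, adjusted p = 1.1e-10). COL27A1, a fibrillar collagen chain, measured 24.9 and 21.3 in the AU-15330 libraries, against 234 and 233 in the DMSO libraries (log2 fold change -3.31 ± 0.06, adjusted p = 3.5e-10). CCN3, a matricellular protein, measured 22.6 and 23.1 in the AU-15330 libraries, against 179 and 181 in the DMSO libraries (log2 fold change -2.95 ± 0.04, adjusted p = 8.2e-11). In each of these the DMSO libraries lay far above both AU-15330 libraries. Other genes in this rank were the collagen receptor ANTXR1 (-3.67), the metalloproteinase TLL2 (-3.23), the tyrosine-degrading enzyme HGD (-3.09), the serine protease TMPRSS4 (-3.09), the large scaffold AHNAK2 (-2.90) and the ubiquitin-conjugating-like UBE2QL1 (-2.74). Some abundant transcripts were also reduced: NEB, the giant actin-binding nebulin, measured 2505 and 2413 in the AU-15330 libraries, against 6050.1 and 6025 in the DMSO libraries (log2 fold change -1.30 ± 0.07, adjusted p = 2.0e-07). CLSTN2, a synaptic adhesion protein, measured 301 and 279 in the AU-15330 libraries, against 948 and 961 in the DMSO libraries (log2 fold change -1.72 ± 0.05, adjusted p = 2.9e-09). The cytokine receptor subunit IL13RA1 (-1.69) and GLUL (glutamine synthetase, -1.19) fell too.

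The genes that rose most were of mixed function. THBS1, a matricellular thrombospondin, measured 63.5 and 59.3 in the AU-15330 libraries, against 2.96 and 2.55 in the DMSO libraries (log2 fold change 4.25 ± 0.09, adjusted p = 5.1e-10), a rise of 19.04-fold. GALNT10, which starts O-linked glycans, measured 79.9 and 80.8 in the AU-15330 libraries, against 12.9 and 13.7 in the DMSO libraries (log2 fold change 2.55 ± 0.06, adjusted p = 7.9e-10). PTPN14, a phosphatase that binds YAP, measured 94.6 and 89.3 in the AU-15330 libraries, against 20.5 and 17.3 in the DMSO libraries (log2 fold change 2.26 ± 0.07, adjusted p = 6.5e-09). ID1, which also ranked among them, is described with its family. ELL3, an elongation factor for RNA polymerase II, measured 43.2 and 48.9 in the AU-15330 libraries, against 10.2 and 10.2 in the DMSO libraries (log2 fold change 2.12 ± 0.07, adjusted p = 9.3e-09). NFATC4, a calcium-responsive factor, measured 43.9 and 42.5 in the AU-15330 libraries, against 9.41 and 9.87 in the DMSO libraries (log2 fold change 2.11 ± 0.07, adjusted p = 5.9e-09). GRIA2, an AMPA receptor subunit, measured 75.7 and 71.8 in the AU-15330 libraries, against 19.2 and 17.1 in the DMSO libraries (log2 fold change 1.99 ± 0.06, adjusted p = 6.5e-09). All these genes, chosen among those that rose most, were higher in both AU-15330 libraries than in either DMSO library. PLD1 (2.00), RGS5 (1.79), EPS15 (1.76), SERTAD3 (1.74), the CXCL12-scavenging receptor ACKR3 (1.73), PRRT2 (1.72) and ARID5B (1.64) rose as well. DGCR6 (2.65) and the related loci ANKRD20A2P (1.79) and ANKRD20A3P (1.73) have near-identical copies among which pseudoalignment can split reads, so their values are uncertain. At higher levels, HIPK3, a nuclear kinase, measured 337 and 343 in the AU-15330 libraries, against 131 and 135 in the DMSO libraries (log2 fold change 1.35 ± 0.04, adjusted p = 3.2e-09). RDX (radixin, which ties actin to the membrane) measured 1344 and 1417 in the AU-15330 libraries, against 641 and 672 in the DMSO libraries (log2 fold change 1.07 ± 0.05, adjusted p = 7.6e-08).

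Some of the genes ranked highest were unequal between the AU-15330 libraries. PCDH9, a protocadherin, measured 27.4 and 66.4 in the AU-15330 libraries, against 6.52 and 5.27 in the DMSO libraries (log2 fold change 2.76 ± 0.30, adjusted p = 2.8e-05). PRRG3 measured 16.5 and 52.99 in the AU-15330 libraries, against 6.57 and 5.58 in the DMSO libraries (log2 fold change 2.20 ± 0.38, adjusted p = 7.3e-04). BTBD9 measured 187 and 388 in the AU-15330 libraries, against 65.6 and 66.9 in the DMSO libraries (log2 fold change 2.02 ± 0.24, adjusted p = 5.2e-05). Replicate 2 of AU-15330 was 2.07 times replicate 1 for BTBD9, 2.39 times for PCDH9 and 3.14 times for PRRG3, and both replicates still lay above the DMSO libraries. In 10016 genes whose mean was 10 or more, the AU-15330 libraries were 2-fold or more apart on this scale in 7 genes and the DMSO libraries in 4.

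Neuroendocrine and subtype factors, which SCLC-P expresses at varied levels, mostly fell. Of 29 tested, 5 rose, 20 fell and 4 did not pass (median -0.51), and the summed value of the 7 neuroendocrine markers was 569.6 to 582 in the AU-15330 libraries, against 706 to 720 in the DMSO libraries. ST18, a zinc finger factor, measured 38.5 and 38.97 in the AU-15330 libraries, against 124 and 121 in the DMSO libraries (log2 fold change -1.64 ± 0.04, adjusted p = 2.0e-09). FOXA1, a pioneer factor of foregut epithelium, measured 72.9 and 72.8 in the AU-15330 libraries, against 162 and 169.6 in the DMSO libraries (log2 fold change -1.18 ± 0.04, adjusted p = 1.0e-08). INSM1 measured 113 and 107.5 in the AU-15330 libraries, against 159 and 158 in the DMSO libraries (log2 fold change -0.52, adjusted p = 3.0e-06). The granins were split, with CHGA lower (-0.78) and CHGB higher (0.57). YAP1, the marker of another SCLC subtype, was low and rose, at 3.64 and 3.85 in the AU-15330 libraries, against 2.14 and 2.40 in the DMSO libraries (log2 fold change 0.62, adjusted p = 0.0033). SOX4 (-0.95) and SOX9 (-0.80), progenitor factors of many epithelia, fell, but the SOX family was split, with 4 higher and 5 lower of 9 tested.

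Genes of the chromatin machinery shifted modestly and in both directions. Of 11 canonical BAF and PBAF subunits, 3 rose and 3 fell (median -0.06; 5 rose under total-count rescaling or without AU-15330 replicate 1), and of 15 non-canonical and shared subunits, 6 rose and 6 fell (median 0.01). BICRAL, which belongs to the non-canonical form, measured 64.1 and 60.3 in the AU-15330 libraries, against 23.7 and 24.7 in the DMSO libraries (log2 fold change 1.34 ± 0.05, adjusted p = 2.8e-08). ARID2, which defines PBAF with PBRM1, measured 149 and 147 in the AU-15330 libraries, against 80.5 and 84.2 in the DMSO libraries (log2 fold change 0.84 ± 0.04, adjusted p = 1.1e-07). ARID1B, a subunit of canonical BAF, measured 192 and 184 in the AU-15330 libraries, against 126 and 125 in the DMSO libraries (log2 fold change 0.58 ± 0.04, adjusted p = 1.1e-06). None of these overlapped between the arms. DPF1, a neuronal BAF subunit, fell (-0.65). Polycomb proteins oppose mSWI/SNF at many loci, and of their 35 genes 16 rose, 9 fell and 10 did not pass (median 0.05), CBX2 being the one to fall over 2-fold (-1.08). KAT2B, a histone acetyltransferase, measured 48.4 and 48.9 in the AU-15330 libraries, against 120.2 and 123 in the DMSO libraries (log2 fold change -1.31 ± 0.04, adjusted p = 5.9e-09). Across 25 acetylation writers and readers, 4 rose and 10 fell, the number lower being 5 without DMSO replicate 2 and 6 without a variance trend.

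Among receptor kinases and their ligands, most genes that passed were lower. Of 33 receptor tyrosine kinases, 6 rose, 20 fell and 7 did not pass (median -0.41; 3 rose in one fit of all 16 libraries and 10 after quantile normalization). Of 28 ligands, 6 rose, 14 fell and 8 did not pass (median -0.20). KIT, the stem cell factor receptor that SCLC often expresses, measured 162 and 170.4 in the AU-15330 libraries, against 358 and 361 in the DMSO libraries (log2 fold change -1.11 ± 0.04, adjusted p = 1.4e-08). Its ligand gene KITLG measured 27.02 and 28.8 in the AU-15330 libraries, against 79.8 and 81.5 in the DMSO libraries (log2 fold change -1.52 ± 0.05, adjusted p = 7.7e-09). Receptor and ligand were each lower in both AU-15330 libraries than in either DMSO library. FLT1, a receptor for vascular endothelial growth factors, measured 10.99 and 10.3 in the AU-15330 libraries, against 70.2 and 71.6 in the DMSO libraries (log2 fold change -2.68 ± 0.06, adjusted p = 8.5e-10). MET, the hepatocyte growth factor receptor named for its role, measured 59.5 and 57.2 in the AU-15330 libraries, against 124 and 125 in the DMSO libraries (log2 fold change -1.09 ± 0.04, adjusted p = 2.1e-08). EPHB2 (-1.46) and FGFR2 (-1.38) fell, while the neuregulin receptor ERBB4 (1.29) and the ligands HBEGF (1.29) and FGF9 (1.10) rose. Feedback genes of the ERK cascade below these receptors included 3 that rose, 10 that fell and 7 that did not pass out of 20 (median -0.33). The Sprouty inhibitors diverged: SPRY2 measured 5.58 and 5.33 in the AU-15330 libraries, against 21.1 and 20.8 in the DMSO libraries (log2 fold change -1.85 ± 0.08, adjusted p = 5.8e-08). SPRY1 measured 91.3 and 95.3 in the AU-15330 libraries, against 28.2 and 26.99 in the DMSO libraries (log2 fold change 1.74 ± 0.05, adjusted p = 3.0e-09). CCND1 (cyclin D1) fell (-1.47), as did the AP-1 subunit JUN (-1.09), although the AP-1 list as a whole had 7 members higher and 7 lower of 22.

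All 4 ID genes rose. These proteins lack a DNA-binding region and block basic helix-loop-helix factors, and BMP signals induce them in many cells. ID1 measured 212 and 226 in the AU-15330 libraries, against 60.1 and 63.7 in the DMSO libraries (log2 fold change 1.81 ± 0.05, adjusted p = 2.0e-09). ID2 measured 156 and 168 in the AU-15330 libraries, against 85.8 and 90.1 in the DMSO libraries (log2 fold change 0.88 ± 0.05, adjusted p = 2.0e-07). ID3 and ID4, named to complete the family, were higher in both AU-15330 libraries as well. ID3 measured 53.8 and 58.4 in the AU-15330 libraries, against 29.8 and 31.5 in the DMSO libraries (log2 fold change 0.86 ± 0.06, adjusted p = 9.2e-07). ID4 measured 85.04 and 90.1 in the AU-15330 libraries, against 60.6 and 62.96 in the DMSO libraries (log2 fold change 0.50 ± 0.05, adjusted p = 1.0e-05). The whole BMP, TGF-beta and ID list was even, since of 37 tested 15 rose, 15 fell and 7 did not pass, and the ligand genes GDF11 (-1.26) and INHBB (-1.13) fell. In the Notch list, 6 rose, 14 fell and 10 did not pass of 30 (median -0.12). The receptors were split: NOTCH1 measured 22.5 and 21.8 in the AU-15330 libraries, against 54.9 and 54.9 in the DMSO libraries (log2 fold change -1.29 ± 0.05, adjusted p = 2.8e-08). NOTCH3, named for its role, measured 14.3 and 12.1 in the AU-15330 libraries, against 7.22 and 6.69 in the DMSO libraries (log2 fold change 0.87 ± 0.10, adjusted p = 5.3e-05). The ligand gene DLL1 (-1.50) and the HES-family gene HES2 (-1.53) fell, whereas the coactivator MAML2 (1.58), the target HEY1 (0.77) and, slightly, NOTCH2 (0.25) rose, the last 2 again named for their role and NOTCH2 losing its call in one fit of all 16 libraries. Wnt pathway genes included 2 that rose, 15 that fell and 8 that did not pass out of 25 (median -0.36), led by the ligand WNT7B (-2.02) and the Wnt receptor-degrading ligase RNF43 (-1.45). HOX genes ran upward, with 15 higher and 5 lower of 33 (median 0.15), for example HOXA13 (1.15), but 9 were higher in one fit of all 16 libraries. HOXC4 fell (-0.96).

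Interferon and MHC class I genes were lower without a member that rose. Of 34 tested, 25 fell and 9 did not pass (median -0.52), although 1 or 2 members were higher under 5 of the alternatives. OAS1, which senses double-stranded RNA, measured 1.41 and 1.96 in the AU-15330 libraries, against 11.4 and 10.2 in the DMSO libraries (log2 fold change -2.38 ± 0.15, adjusted p = 4.6e-07). IRF1, an interferon-inducible factor, measured 2.11 and 1.71 in the AU-15330 libraries, against 8.66 and 8.78 in the DMSO libraries (log2 fold change -1.94 ± 0.13, adjusted p = 8.8e-07). The RNA sensor RIGI measured 53.1 and 53.7 in the AU-15330 libraries, against 112 and 119 in the DMSO libraries (log2 fold change -1.10 ± 0.05, adjusted p = 2.9e-08). Antigen presentation genes took part: HLA-B measured 93.04 and 96.3 in the AU-15330 libraries, against 197 and 199 in the DMSO libraries (log2 fold change -1.06 ± 0.04, adjusted p = 1.5e-08). HLA-C (-0.75), named for its role, fell too, with the caution that these similar and polymorphic genes share reads. ERAP2, which trims peptides for MHC class I, fell (-1.63). B2M, the invariant light chain, did not pass, at 158 and 181 in the AU-15330 libraries, against 181 and 183 in the DMSO libraries (log2 fold change -0.11 ± 0.06, adjusted p = 0.14), but passed as lower without AU-15330 replicate 2 (log2 fold change -0.20, adjusted p = 6.9e-07). Of the proteasome genes tied to antigen processing, PSME1 fell (-0.79), PSMB8 fell (-0.53) with a call that ended under quantile rescaling (adjusted p = 0.056), without a filter (0.051) and when all 16 libraries were fitted together (0.19), and PSMB9 (0.13), PSMB10 (0.31) and PSME2 (-0.18) did not pass. PSMB10 passed as higher without AU-15330 replicate 1 (0.46, adjusted p = 0.0035), without DMSO replicate 1 and under total-count or quantile rescaling, and PSME2 passed as lower without AU-15330 replicate 2 (-0.29, adjusted p = 7.5e-04).

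Several groups of surface and secreted products of epithelia and neurons were lower. All 11 tested mucin and airway secretory genes passed, 3 higher and 8 lower (median -1.33). MUC5B, a gel-forming airway mucin, measured 7.18 and 6.32 in the AU-15330 libraries, against 40.5 and 36.5 in the DMSO libraries (log2 fold change -2.43 ± 0.09, adjusted p = 1.1e-08). SCNN1A, a subunit of the epithelial sodium channel, fell (-1.77), as did the trefoil peptide TFF1 (-1.49). S100 and annexin genes, which encode calcium-binding proteins, included 1 that rose, 10 that fell and 3 that did not pass out of 14 (median -0.97). ANXA1 measured 59.2 and 65.98 in the AU-15330 libraries, against 332 and 332 in the DMSO libraries (log2 fold change -2.40 ± 0.05, adjusted p = 5.9e-10). Potassium channel genes included 5 that rose, 29 that fell and 13 that did not pass out of 47 (median -0.55), with KCNK5 (-1.73) beside KCNN3. Axon guidance genes included 6 that rose, 29 that fell and 6 that did not pass out of 41 (median -0.48), for example RGMA (-1.36), UNC5B (-1.09) and NRP1 (-1.02). Synaptic adhesion and receptor genes had 4 higher and 20 lower of 39 (median -0.46), such as CADM4 (-1.68) and NRXN2 (-1.38). Cadherins and protocadherins had 3 higher and 27 lower of 42 (median -0.37), with DCHS1 (-1.58) among them. Matrix and integrin genes included 6 that rose, 29 that fell and 15 that did not pass out of 50 (median -0.35), with the basement membrane genes HSPG2 (-2.14) and NID1 (-1.56) lower while THBS1 rose. A filter at a mean of 5 left 19 potassium channel, 16 cadherin and 11 synaptic genes lower, since it tests fewer genes.

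Survival and iron genes included some abundant transcripts. BCL2, which blocks apoptosis, measured 60.4 and 60.6 in the AU-15330 libraries, against 138 and 139 in the DMSO libraries (log2 fold change -1.19 ± 0.04, adjusted p = 7.5e-09). MCL1, a related protein of short half-life, measured 299 and 321 in the AU-15330 libraries, against 418 and 428 in the DMSO libraries (log2 fold change -0.45 ± 0.05, adjusted p = 1.6e-05). PMAIP1, a BH3-only protein that opposes MCL1, fell (-1.12), whereas BAD rose (0.43). The family as a whole included 5 that rose, 6 that fell and 7 that did not pass out of 18. Iron storage genes fell: FTL, the ferritin light chain, measured 262 and 269.6 in the AU-15330 libraries, against 518 and 519 in the DMSO libraries (log2 fold change -0.96 ± 0.04, adjusted p = 2.8e-08). FTH1, the heavy chain, measured 634 and 659 in the AU-15330 libraries, against 1023 and 1059 in the DMSO libraries (log2 fold change -0.69 ± 0.05, adjusted p = 9.8e-07). Ferritin genes have many processed pseudogenes, so reads may be shared. HMOX1, which releases iron from heme, rose (1.31) and the iron-sensing aconitase ACO1 fell (-0.91). The iron list was not lower as a whole (4 higher, 6 lower, 12 not passing of 22, median 0.07, and 10 higher under total-count or quantile rescaling).

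Junction, growth and stress genes were mixed. Of 42 epithelial junction and keratin genes, 12 rose and 19 fell (median -0.09; 11 fell in one fit of all 16 libraries). KRT19, a simple epithelial keratin, measured 21.1 and 22.7 in the AU-15330 libraries, against 53.7 and 55.00 in the DMSO libraries (log2 fold change -1.29 ± 0.06, adjusted p = 4.7e-08). ESRP1, an epithelial splicing factor, went the other way and measured 336 and 345 in the AU-15330 libraries, against 183 and 187 in the DMSO libraries (log2 fold change 0.88 ± 0.04, adjusted p = 4.7e-08). OVOL2, a repressor that maintains epithelial identity, also rose (0.94). YAP and TEAD target genes were split, with 9 higher and 7 lower of 24, for example THBS1 and PTPN14 rose while AJUBA and the angiomotin-like AMOTL2 (-1.22) fell. Among inhibitors of G1 kinases, CDKN1A (-0.70) and CDKN1C (-1.28) fell and CDKN2B (0.71) and CDKN2C (0.63) rose. ATF5, a factor of the integrated stress response, measured 19.3 and 19.3 in the AU-15330 libraries, against 55.9 and 61.8 in the DMSO libraries (log2 fold change -1.59 ± 0.06, adjusted p = 2.1e-08). ODC1, which makes the polyamine putrescine, measured 502 and 543 in the AU-15330 libraries, against 766 and 769.8 in the DMSO libraries (log2 fold change -0.56 ± 0.05, adjusted p = 5.7e-06). CXCR4, the signalling receptor for the ligand that ACKR3 clears, fell (-1.71) whereas ACKR3 rose. The receptor-type phosphatases had 2 higher and 10 lower of 16 (median -0.34), among them PTPRT, which measured 59.8 and 55.9 in the AU-15330 libraries, against 191 and 196 in the DMSO libraries (log2 fold change -1.73 ± 0.05, adjusted p = 2.0e-09).

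Several groups of housekeeping genes drifted slightly upward. Eukaryotic initiation factors had 19 higher and 12 lower of 54 (median 0.06), whereas vacuolar ATPase subunits had 6 higher and 10 lower of 19 (median -0.13). Cytosolic ribosomal protein genes included 46 that rose, 1 that fell and 37 that did not pass out of 84 (median 0.16). Their count of higher members was 12 without a variance trend, 16 without a filter, 28 when all 16 libraries were fitted together, 23 without DMSO replicate 1 and 75 without AU-15330 replicate 1. Mitochondrial ribosomal proteins had 35 higher and 3 lower of 78 (median 0.14; 17 higher without a variance trend), proteasome subunits 29 and 2 of 46 (0.15; 14 higher), complex I subunits 21 and 2 of 45 (0.11; 10 higher) and aminoacyl tRNA synthetases 11 and 0 of 18 (0.15; 7 higher). All of these shifts were small, with medians of at most 0.18 on the log2 scale. The proteasome subunit gene PSMB5 (0.37) and the isoleucyl tRNA synthetase IARS1 (0.31) are examples of members that rose. Zinc finger (ZNF) genes had 141 higher and 77 lower of 481 (median 0.04), with 86 higher and 46 lower in one fit of all 16 libraries. Replication and mitosis genes moved in both directions, with 7 higher and 14 lower of 43 replication licensing genes (12 each way under total-count rescaling, 5 lower without DMSO replicate 2) and 15 and 10 of 44 mitosis genes (9 higher and 6 lower without DMSO replicate 2).

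The changed genes differed from the rest in level and gene span. At least 2-fold lower genes made up 10.1% of the 1679 genes with a mean of 1 to 3 and 10.5% of the 1990 with a mean of 3 to 10, but 2.27% of the 528 above 300. At least 2-fold higher genes made up 4.17% of the first class and 0.189% of the last, and both shares were smaller in every class above a mean of 10 than in the classes below it. By span (exons and introns), at least 2-fold lower genes were 4.41% to 5.18% of the 4 classes up to 150 kb, 7.81% of 1446 genes of 150 to 500 kb and 13.3% of 210 genes above 500 kb. Of those 210 longest genes, 49.5% passed as lower and 27.1% as higher, with a median log2 fold change of -0.21. By CpG count of the GENCODE window, at least 2-fold lower genes were 8.82% of 1836 with 0 to 5 CpG, 7.75% of 1252 with 6 to 10, 3.86% of 2951 with 11 to 20, 3.45% of 3743 with 21 to 30 and 5.73% of 3854 with 31 or more, so the share was not ordered by CpG count. Chromosome 13 had the largest share of genes that passed as higher, 43.1% of 239, and chromosome 16 the smallest, 18.8% of 628. These shares are descriptions, since level, span and base composition move together across genes and their parts were not tested.

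**Figure D4:**
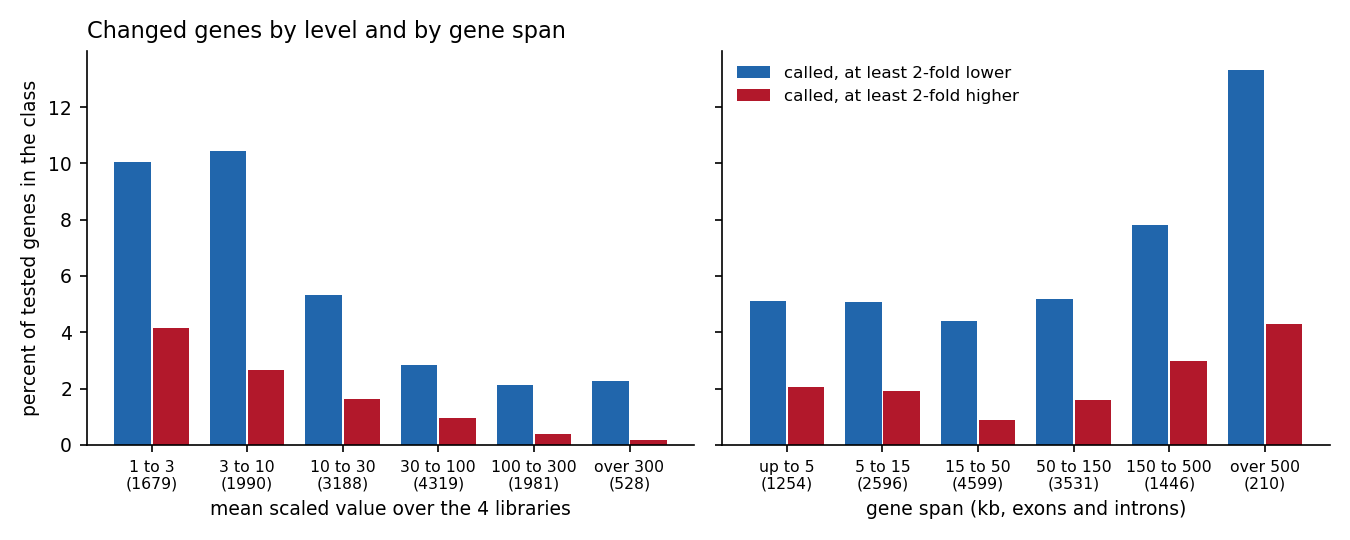
Percent of tested NCI-H526 genes at least 2-fold lower (blue) or higher (red) with AU-15330, by class of mean scaled value (left) and of gene span in kb (right), with the number of genes in each class in brackets. The lower share is 2.12% in the class of 100 to 300, 2.27% in the class above 300 and reaches 13.3% in genes spanning more than 500 kb.

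NCI-H1048 is the other SCLC-P line of the series and was prepared in the same way, so it shows which responses differed in size. The test of the difference, NCI-H526 response minus NCI-H1048 response, could be run on 12544 genes and passed for 3623 (28.9%). Of 17 lineage and mSWI/SNF genes, 14 were tested, and 9 passed. POU2F3 fell less in NCI-H526, by 2.39 on the log2 scale, against a log2 fold change of -4.02 in NCI-H1048, where it measured 35.5 and 33.1 in the AU-15330 libraries, against 600.04 and 534 in the DMSO libraries (difference 1.64, adjusted p = 1.0e-06). POU2AF3 differed most (2.32, adjusted p = 2.4e-07), with 27.3 and 26.9 in the NCI-H1048 AU-15330 libraries, against 252 and 253 in its DMSO libraries (-3.19). POU2AF2 fell more in NCI-H526 (difference -0.78, adjusted p = 0.0033). In NCI-H1048 it measured 3.57 and 2.60 in the AU-15330 libraries, against 20.1 and 19.4 in the DMSO libraries. GFI1B had opposite signs, rising in NCI-H526 and falling in NCI-H1048 (-1.18), where it measured 19.0 and 18.4 in the AU-15330 libraries, against 43.1 and 42.8 in the DMSO libraries (difference 1.74, adjusted p = 5.0e-07). AVIL fell less in NCI-H526 (1.76, adjusted p = 1.7e-07), while ASCL2 (-1.35, adjusted p = 1.6e-05), SH2D6 (-1.56, adjusted p = 2.0e-05) and DCLK1 (-0.65, adjusted p = 5.7e-04) had the lower response there. SH2D6 was low in NCI-H1048, at 1.46 and 1.17 in the AU-15330 libraries, against 3.21 and 2.88 in the DMSO libraries. The added 0.5 understates its change at that level. ASCL2 measured 7.26 and 6.30 in the NCI-H1048 AU-15330 libraries, against 9.97 and 10.2 in its DMSO libraries. The POU2AF1 difference (-0.68, adjusted p = 0.044) was lost in 6 of 8 fits that left out 1 library. SMARCA2 (0.17), SMARCA4 (-0.17), PBRM1 (0.06), POU2F1 (0.11) and MYCN (-0.14) did not pass, and the first 3 passed without AU-15330 replicate 2 of NCI-H1048. TRPM5 and PTGS1 were under the filter in NCI-H1048 and could not be compared.

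**Figure D5:**
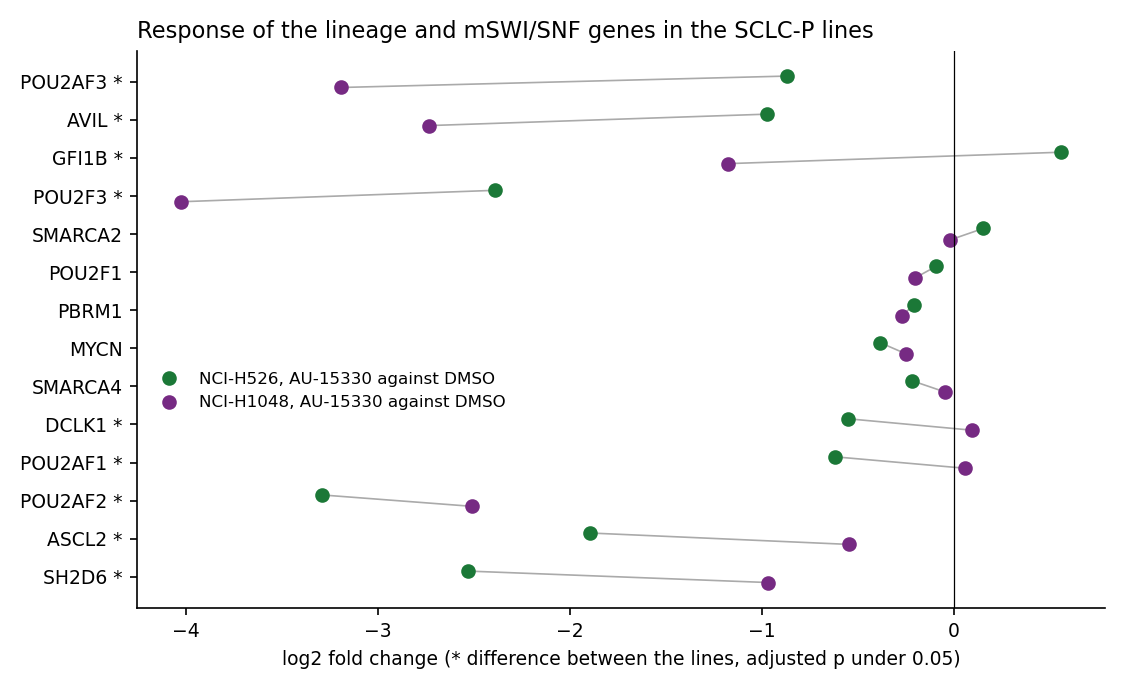
Log2 fold change of AU-15330 against DMSO (horizontal axis) for 14 lineage and mSWI/SNF genes in NCI-H526 (green) and NCI-H1048 (purple), ordered by the difference, with an asterisk where the difference between the lines passed. GFI1B lies at 0.56 in NCI-H526 and at -1.18 in NCI-H1048.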

How the data were processed

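RNA was sequenced from NCI-H526 by poly(A) selection. Reads had their adapters trimmed and were pseudoaligned to GRCh38 (hg38) with kallisto by the authors, who also used edgeR and limma, as the methods and the submitters' processing notes state. Their annotation release was not given in the sources used here. Although the deposited table is named CPM, its NCI-H526 totals ran from 0.987 to 1.044 M. The deposited values were therefore treated as a signal scaled by effective library size, which is inferred from those totals and differs from the CPM assumed at the start. Among values of up to 20 steps, 78.4% to 79.2% per library lay within 0.1 step of a whole multiple of that library's step, so whole reads could not be recovered and no count test is the main result; limma-voom on counts estimated from the steps was an alternative. The totals divided by the steps gave the depth estimates.

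Each gene with a mean of at least 1 was tested two-sided by limma-trend (limma 3.58.1, R 4.3.3; Benjamini-Hochberg at 0.05) on log2(value + 0.5), in the 4 NCI-H526 libraries without covariates. The difference between lines was a contrast over the 8 SCLC-P libraries. Identifiers were matched to GENCODE release 44 (35444 matched, 162 did not, 49 of them tested), and 27 symbols turned into dates were restored. Gene coordinates come from that release and count from 1.

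The members, 40 gene lists and 44 families were chosen with earlier results of these data known, so lists are described by counts and medians. Named genes were the lineage and mSWI/SNF genes, the 25 highest and 25 lowest genes that passed at a mean of 10 or more, up to 5 called members per list with the largest change and a mean of at least 5, the 10 largest changes in level in each direction and the 10 highest and 10 lowest transcription factors. INSM1, CHGB, NEUROD1, YAP1 and the other cell type markers come from the marker lists, and genes named for their role are stated as such. Alternatives were other pseudocounts, filters and scalings, limma-voom, other fits, a 2-fold minimum, a replicate block and leaving out each library. The test was checked on simulated data. Replicate numbers are not known to pair the arms, and the correlation of same-numbered deviations was 0.012. With 2 libraries per arm, both numbers give the same correlation, so it cannot exclude pairing. Some genes that the rule or the lists include are not reported here.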

Additional observations from a re-analysis of the deposited data

Results flagged for a closer look

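The response to AU-15330 differed between NCI-H526 and NCI-H1048 for 9 of the 14 lineage and mSWI/SNF genes that could be compared (limma contrast over 8 libraries, Benjamini-Hochberg adjusted p under 0.05). Over all 12544 genes that could be compared, 3623 passed (28.9%). The differences, NCI-H526 minus NCI-H1048 on the log2 scale, were 2.32 for POU2AF3, 1.76 for AVIL, 1.74 for GFI1B and 1.64 for POU2F3, and -0.65 for DCLK1, -0.68 for POU2AF1, -0.78 for POU2AF2, -1.35 for ASCL2 and -1.56 for SH2D6. A positive difference means the log2 fold change was higher in NCI-H526. GFI1B alone had calls of opposite direction, with log2 fold changes of 0.56 in NCI-H526 and -1.18 in NCI-H1048. DCLK1 (0.10) and POU2AF1 (0.06) did not pass in NCI-H1048. The POU2AF1 difference (adjusted p = 0.044 in the limma contrast) was lost in most fits that left out 1 library.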

How the results depend on the processing

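Counts of genes in NCI-H526 that passed kept to within 1.5 times under other pseudocounts, filters, scalings and fits, apart from a tested minimum change of 2-fold, under which 459 genes passed, 95 higher and 364 lower, and a filter at a mean of 5, which tests fewer genes and left 127 at least 2-fold higher and 471 at least 2-fold lower. Total-count rescaling gave 4823 higher and 3639 lower, quantile normalization 4710 and 3547, limma-voom on estimated counts 3997 and 4088, and one fit of all 16 libraries 2828 and 3115. Quantile normalization also made 66.3% of the 2-fold changes lower (307 higher, 604 lower), against 76.3%. Leaving out each library in turn gave 6389 to 9073 genes that passed (3032 to 4728 higher, 3347 to 4469 lower), with 228 to 249 at least 2-fold higher and 730 to 754 at least 2-fold lower; the remaining library of that arm is then assumed to vary like the other arm. For the difference between the lines these fits gave 2298 to 5418 genes, with 2388 without NCI-H526 DMSO replicate 1 and 2298 without replicate 2. With the replicate block, 8602 genes passed (4291 higher, 4311 lower) and 4121 in the difference between the lines, but the numbers are not known to pair the samples. No named gene reversed its call, but 293 named genes no longer passed with the tested minimum of 2-fold and 13 in one fit of all 16 libraries. Counting error weighs most on low genes, since a value of 1 rests on an estimated 31.9 to 41.2 reads.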

Other observations

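The 3 genes that rose and were unequal between the AU-15330 libraries of NCI-H526 were unequal in the same sense in NCI-H1048. BTBD9 measured 70.1 and 343 in the AU-15330 libraries of NCI-H1048, against 25.9 and 42.8 in its DMSO libraries. PRRG3 measured 11.7 and 49.3 in the AU-15330 libraries, against 2.56 and 6.23 in the DMSO libraries. PCDH9 measured 21.2 and 70.1 in the AU-15330 libraries, against 12.3 and 15.2 in the DMSO libraries. Replicate 2 of AU-15330 was the higher in both lines for all 3 genes. The other NCI-H526 genes with AU-15330 libraries 2-fold or more apart, BTBD7, SLC39A7, TRIM27 and VPS52, did not pass, and TRIM27 and VPS52 were also unequal between the DMSO libraries, at 41.7 and 17.3 for TRIM27 and 21.9 and 6.58 for VPS52.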
